A study of Mus musculus with 6 samples.

Results

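The genes followed here mark resting (homeostatic) microglia without belonging to a receptor family. They are Tmem119, Selplg, Aif1, Crybb1, Olfml3 and Sparc, measured in hippocampus of the Cx3cr1-NuTRAP mouse. The genes were taken by symbol from the deposited gene table, where each had 1 row, so that 6 of 15388 genes are described here, and all 6 passed the filter on low reads that left 15343 genes for the test. The mice were Cx3cr1-cre/ERT2+; NuTRAP+, with 1 copy of each allele, and all of them had received tamoxifen on 5 consecutive days at about 3 months of age. The study as a whole used males and females, and the sample labels do not give the sex of these animals. NuTRAP is a reporter that, once Cre has removed its stop cassette, puts GFP on a protein of the large ribosomal subunit. In translating ribosome affinity purification (TRAP) the homogenized hippocampus was cleared, a portion was kept as Input, and ribosomes pulled down with anti-GFP antibody made up the Positive fraction. Animals 201, 207 and 208 contributed 1 Input and 1 Positive library each, 6 libraries from 3 animals. All libraries thus came from recombined mice, no library came from mice without Cre, and the unbound fraction was not analysed here. The Cx3cr1 promoter that drives Cre is also used by macrophages at the borders of the brain, which limits the Positive fraction as a model of microglia, and by monocytes. In this line the tissue was taken 3 to 4 weeks after tamoxifen, a delay meant to keep labelled monocytes out.

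Summed over the 15388 genes, each library held between 14879734 and 17757918 estimated reads. Reads carried no molecular identifiers, so read numbers limit counting error only. Levels are given as scaled reads, that is, raw reads divided by the size factor of the library. The labelled cell type was checked by 7 defining microglial genes, and 7 of 7 were higher in Positive, with a median log2 fold change of 4.63. Of 7 oligodendrocyte genes 7 were lower (median -2.44). Of 8 general neuronal genes 2 were higher and none lower (median 0.16). Their sum was 97777 to 109198 scaled reads in Input and 105993 to 124241 in Positive. The scaled level of neuronal genes was thus not reduced in Positive. Of 10 genes that mark hippocampal neurons, 10 were measured, and their sum was between 16350 and 18344 scaled reads in Input. Their median log2 fold change was 0.08. The Positive library of animal 208 stood apart in its vascular genes. There the median log2 ratio of Positive over Input was 1.12 over 12 endothelial genes and -0.89 over 10 mural genes, against 2.19 and 0.12 in animal 201 and 2.15 and 0.21 in animal 207.

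Microglia are the resident macrophages of the brain, and in the healthy tissue they carry a set of transcripts that separates them from neurons and macroglia, and in part from macrophages arriving from blood. Tmem119 and Selplg encode proteins of the cell surface, Aif1 and Crybb1 encode cytoplasmic proteins, and Olfml3 and Sparc encode secreted proteins of the extracellular matrix. Transcripts being translated in recombined cells are drawn into the Positive fraction, whereas Input holds RNA of all cells of the hippocampus. The question put to each gene was how far its level in Positive exceeded that in the Input of the same animals.

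All 6 genes were higher in Positive, by 5.52-fold for Sparc and by 17.9-fold to 27.4-fold for the other 5. Among all genes tested, 24.0% were called higher (3684 genes, adjusted p under 0.05) and 22.0% were called lower (3369 genes). With scaling to the total count in place of the median of ratios the split was 3048 higher and 4281 lower, and the 6 genes remained higher. In all 6 genes every Positive library was above every Input library, which held for 28.9% of all genes tested. All 6 passed the filter on low reads in Input as well as in Positive. In 5 of 6 genes the ratio was over 5-fold in each of the 3 animals, which held for 2.92% of all genes tested. Summed over the 6 genes, the reads made up 0.04% to 0.044% of the reads summed over all 15388 genes in an Input library and 0.289% to 0.413% in a Positive library. In tissue RNA a smaller number of cells of a type and less RNA per cell cannot be told apart, so the ratios describe RNA and not numbers of cells.

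**Figure D1:**
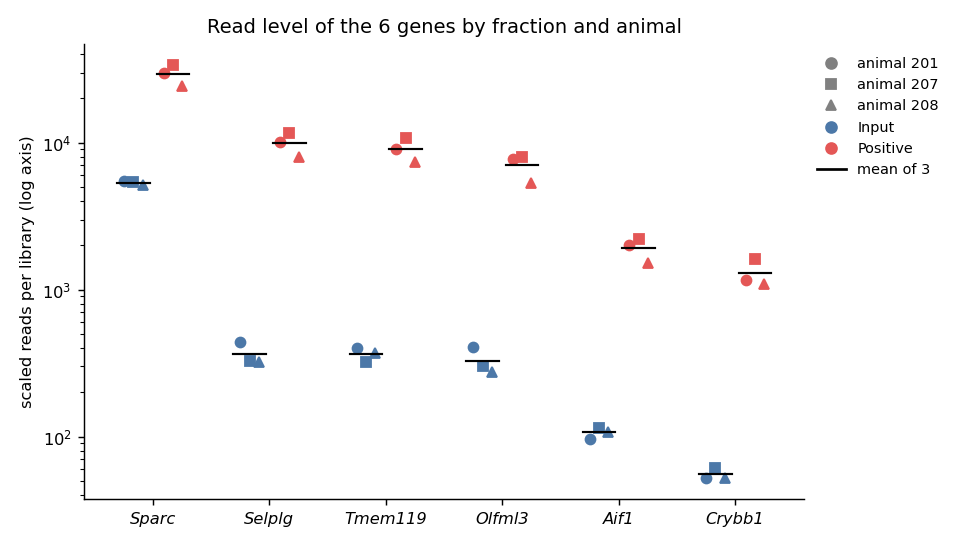
Scaled reads per library (vertical log axis) of the 6 genes (horizontal axis), with Input in blue, Positive in red, a symbol shape for each animal and a line at the mean of 3 libraries. In every gene the 3 red points lie above the 3 blue points, and Sparc has the highest Input level, at 5120 to 5463 scaled reads.

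Tmem119 (ENSMUSG00000054675, mm10 chr5:113793729-113800516, minus strand) encodes a single-pass membrane protein that is widely used to mark microglia. Its level was 403, 324 and 373 scaled reads in Input of animals 201, 207 and 208, and 9069, 10798 and 7402 in their Positive libraries. The lowest Positive library was thus far above the highest Input library. The log2 fold change was 4.63 ± 0.15 (SE; edgeR quasi-likelihood test, adjusted p = 1.94e-10), and it ranked number 72 of the 15343 genes tested by fold change.

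Selplg (ENSMUSG00000048163, mm10 chr5:113818536-113832644, minus strand) encodes PSGL-1, a mucin-like glycoprotein that binds selectins. Its scaled reads were 440, 327 and 322 in Input and 10174, 11592 and 8030 in Positive, in the same order of animals. Here too the fractions were widely apart, and only Input of animal 201 departed from the other Input libraries. The log2 fold change of 4.77 ± 0.16 (SE; edgeR, adjusted p = 2.47e-10) placed the gene number 45 in order of fold change. Selplg and Tmem119 lie on the same strand of chromosome 5 with 18020 bases between them. The number of Selplg reads for each Tmem119 read was 0.862 to 1.09 in Input and 1.07 to 1.12 in Positive, so that the pair kept nearly the same proportion in both fractions whatever the scaling. This was not particular to neighbours. Olfml3, on chromosome 3, had 0.73 to 1.01 reads for each Tmem119 read in Input and 0.72 to 0.851 in Positive.

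Aif1 (ENSMUSG00000024397, mm10 chr17:35170991-35176068, minus strand) encodes Iba1, the calcium-binding and actin-bundling protein by which microglia are commonly stained. Input held 96.9, 115 and 108 scaled reads, and Positive 2019, 2212 and 1510. The gene ranked number 169 (log2 fold change 4.16 ± 0.15, SE; edgeR, adjusted p = 3.68e-10). In animal 208 the ratio was 13.9-fold, against 20.6-fold and 19.1-fold in the others.

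Crybb1 (ENSMUSG00000029343, mm10 chr5:112255815-112269585, plus strand) encodes a beta crystallin, a protein family best known from the lens of the eye. It was the least abundant of the 6 genes in reads, with 52.0, 61.4 and 52.4 scaled reads in Input and 1157, 1608 and 1096 in Positive. The fractions did not overlap, and the Positive library of animal 207 stood above the other Positive libraries. The log2 fold change was 4.54 ± 0.17 (SE; edgeR, adjusted p = 5.17e-10), number 89 in order.

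The RefSeq table of promoters (GRCm38.p6, from 250 bases before to 50 bases after a gene start) held entries for 4 of the 6 genes, Olfml3, Sparc, Crybb1 and Aif1. The entries were searched on both strands for GAGGAAGT, a form of the site of the myeloid factor PU.1, for the core of the interferon response element, which is a pair of GAAA with any 2 bases between them, and for TATAAA, the TATA box. These motifs do not overlap each other and were present in 3.2%, 3.44% and 13.6% of the 32851 promoters of the table. Of the 4 entries, that of Crybb1 held 1 TATA box and that of Aif1 held 1 interferon response element core, and no PU.1 letters were found in any of the 4 windows. The upstream bases of both are shown because they are the genes with a match, with the match in capitals. Crybb1 is shown for chr5:112255660-112255814 on the plus strand and Aif1 for chr17:35176069-35176223 on the minus strand, each ending before the first annotated base of the gene.
Crybb1: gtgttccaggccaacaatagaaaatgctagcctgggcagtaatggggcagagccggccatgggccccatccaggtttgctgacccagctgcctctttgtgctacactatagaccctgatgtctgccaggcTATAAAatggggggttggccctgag
Aif1: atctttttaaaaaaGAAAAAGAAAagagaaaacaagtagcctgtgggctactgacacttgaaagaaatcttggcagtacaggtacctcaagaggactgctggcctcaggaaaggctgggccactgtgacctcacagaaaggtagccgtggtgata
The TATA letters of Crybb1 lay from -30 to -25 relative to the RefSeq start, and the match of Aif1 lay from -157 to -148. A match of letters is a description of the window and not evidence of binding.

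Olfml3 (ENSMUSG00000027848, mm10 chr3:103722222-103738001, minus strand) encodes a secreted glycoprotein with an olfactomedin domain. Levels were 406, 300.0 and 273 scaled reads in Input and 7718, 8015 and 5332 in Positive. Input of animal 201 and Positive of animal 208 were each set off from the other libraries of their fraction, and the fractions stayed apart. The log2 fold change was 4.43 ± 0.18 (SE; edgeR, adjusted p = 7.08e-10), number 114 in order.

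Sparc (ENSMUSG00000018593, mm10 chr11:55394500-55423183, minus strand) encodes a secreted collagen-binding glycoprotein also called osteonectin, which in brain is known from vascular cells and other glia as well as from microglia. Its Input libraries held 5463, 5367 and 5120 scaled reads and its Positive libraries 29877, 33968 and 24220. The fractions were fully apart although the starting level was high. The log2 fold change of 2.46 ± 0.12 (SE; edgeR, adjusted p = 3.97e-09) was number 535 in order. The ratio was 5.47-fold in animal 201, 6.33-fold in animal 207 and 4.73-fold in animal 208, on both sides of 5-fold.

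For all 6 genes the Positive level was highest in animal 207 and lowest in animal 208. The Input levels followed no such order, and Input of animal 207 was the lowest of the 3 for Tmem119 and the highest for Crybb1 and Aif1. Without the Positive library of animal 208 the log2 fold change was 2.59 for Sparc and 4.31 to 4.91 for the other genes, still called in each gene.

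The 6 genes differed from each other mainly through Sparc. Within an animal, the log2 ratio of Sparc lay below the median of the other 5 genes by -2.0, -2.07 and -2.06 in animals 201, 207 and 208, a mean of -2.05 ± 0.04 (SD over 3 animals). Every other gene exceeded Sparc in each animal. With 3 animals an exact sign-flip test cannot give a p below 0.25, so these differences are given without a test. In counts of reads within a library, which need no scaling, there were 13.6 to 16.6 Sparc reads for each Tmem119 read in Input and 3.15 to 3.29 in Positive.

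Among the other 5 genes the differences were small beside their spread in several pairs. Of the 10 pairs without Sparc, 7 kept a direction in all 3 animals. In order of fold change, Selplg exceeded Tmem119 by 0.15 ± 0.16 (SD) on the log2 scale. Selplg exceeded Olfml3 by 0.35 ± 0.06 (SD) on the log2 scale, with 0.28, 0.41 and 0.35 in the 3 animals. Selplg exceeded Aif1 by 0.63 ± 0.40 (SD), from 0.16 to 0.88. Tmem119 and Crybb1 differed by 0.12 ± 0.22 (SD), and the sign of their difference changed in animal 208. Crybb1 and Olfml3 differed by 0.08 ± 0.13 (SD), and Olfml3 and Aif1 by 0.28 ± 0.35 (SD), both without a common direction. Neighbours in the order were thus not separated beyond the spread between animals, except Aif1 and Sparc, with 1.69 ± 0.20 (SD).

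**Figure D2:**
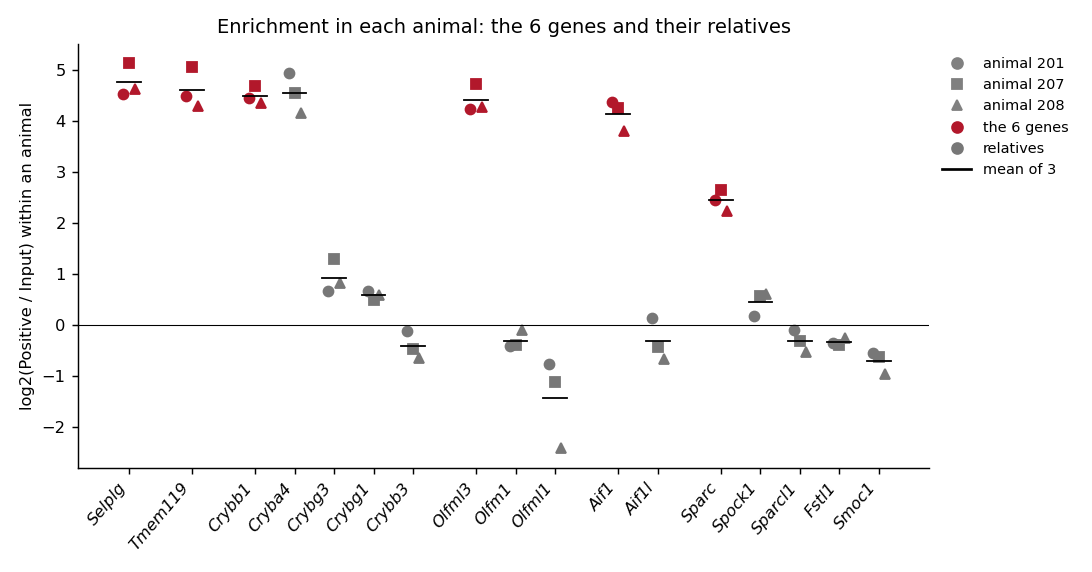
Log2 ratio of Positive over Input within each animal (vertical axis, 0 means no difference) for the 6 genes in red and for relatives of Crybb1, Olfml3, Aif1 and Sparc in grey, with a symbol for each animal and a line at the mean of 3 animals. Among the grey genes Cryba4 alone reaches the height of the red ones, with 4.94, 4.55 and 4.16, and Sparc lies between the other 5 genes and its own relatives.

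Compared per length, as scaled reads per kilobase of exon, the genes took another order. In Positive, Sparc was highest with 6394 to 8967, followed by Tmem119 with 3197 to 4664 and Selplg with 1880 to 2714, and these 3 ranges did not overlap. Crybb1 (1112 to 1632), Aif1 (986 to 1444) and Olfml3 (866 to 1301) overlapped each other. The order of Tmem119 and Selplg rested on the length used: over the longest transcript the mean was 4292 for Selplg and 4054 for Tmem119, against 2325 and 3926 over all exons. Aif1 then had 2187 and Crybb1 1459, against 1249 and 1307.

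In Input, the level of Sparc per kilobase was 1352 to 1442, and the next gene, Tmem119, had 140 to 174. Selplg had 75.4 to 103 and Aif1 63.3 to 74.8. Crybb1 with 52.8 to 62.3 and Olfml3 with 44.3 to 65.9 overlapped. Over the longest transcript, Tmem119 had 164 ± 17.9 (SD) in Input and Selplg 157 ± 28.9 (SD), so that Tmem119 and Selplg were not separated there. Ranks were taken over all exons among 15325 genes with a length. Tmem119 went from number 5191 in Input to number 96 in Positive, Selplg from 7918 to 211 and Aif1 from 8762 to 513. Crybb1 went from 9612 to 484 and Olfml3 from 9853 to 587. Sparc was number 405 in Input already and number 31 in Positive. In hippocampal RNA as a whole, 5 of the 6 genes were thus of middling to low level, and in Positive all 6 were among the 587 highest over all exons, or the 729 highest over the longest transcript.

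**Figure D3:**
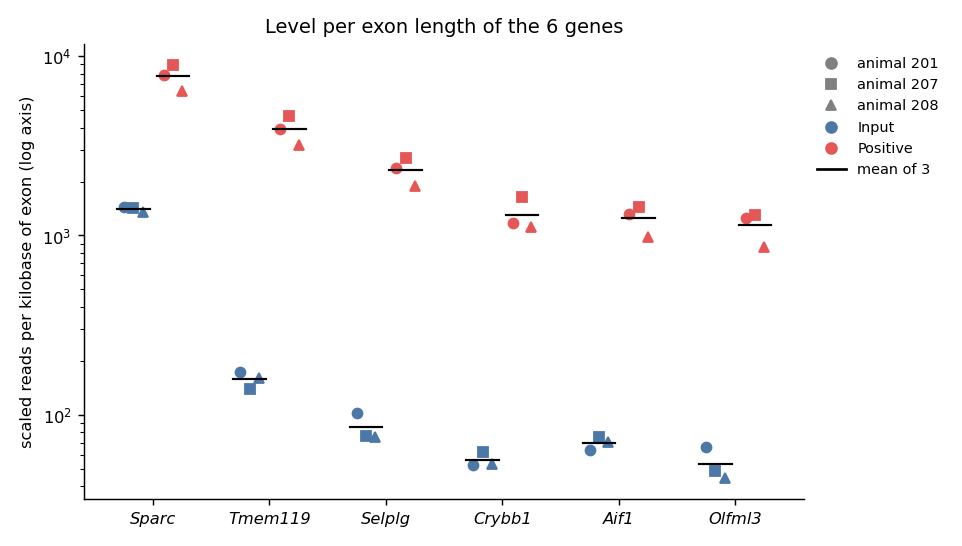
Scaled reads per kilobase of exon (vertical log axis) for the 6 genes in each library, with Input in blue, Positive in red, a symbol for each animal and a line at the mean of 3. Over all exons the Positive ranges of Sparc, Tmem119 and Selplg are separate from each other, and those of Crybb1, Aif1 and Olfml3 overlap between 866 and 1632.

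Other genes that mark homeostatic microglia were set beside these 6. Of 35 listed, 34 were tested and 34 were higher, with a median log2 fold change of 4.31 and a range of 0.78 to 5.29, where the median over all genes tested was -0.01. Of the 34, 2 passed the filter on low reads through Positive alone, where they are high, and the other 32 had the same median. Sparc exceeded 5 of the 34 (among them Cst3, the secreted protease inhibitor cystatin C, with 2.31, and the transcription factor gene Mef2c with 0.78) and lay below 29 of them, in each of the 3 animals. In the fit 6 of the 34 exceeded Selplg, and within animals 14 did in animal 201 and 3 in each of the others. In the fit Aif1 was exceeded by 19, and within animals by 17 to 22. Csf1r, the receptor of the growth factor on which microglia depend, had 4.63, and Ctss, a cathepsin gene, 4.72. The study took a list of microglial genes from published cell-sorting and single-cell data. It filtered that list by enrichment score and removed genes found on the lists of several cell types. The list held Tmem119, Olfml3, Crybb1, Selplg and Aif1, as did the study's list from ribosomal tagging, and neither held Sparc. Of the sorted microglial list 238 genes were tested and 234 were higher (median 3.65), among them 25 that passed the filter through Positive alone. Of the other 213 genes 209 were higher, with a median of 3.49.

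**Figure D4:**
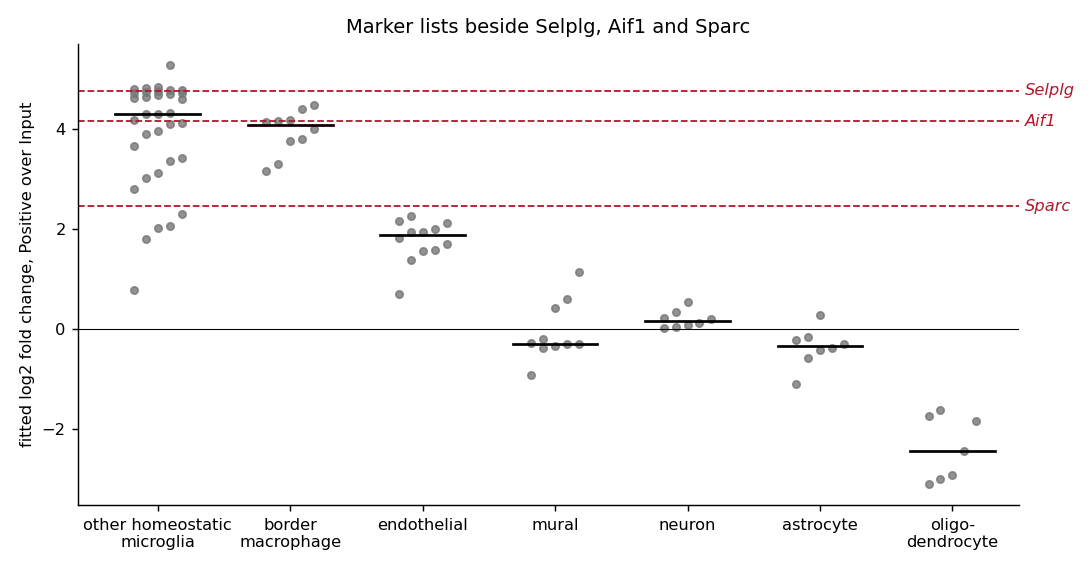
Fitted log2 fold change of Positive over Input (vertical axis) for each gene of 7 marker lists, as grey points with a black line at the median, and dashed red lines at the values of Selplg, Aif1 and Sparc. Sparc at 2.46 lies above all 12 endothelial points and below 29 of the 34 other homeostatic microglial points.

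Sparc is also a gene of endothelial cells, and the endothelial genes rose in Positive as well. Of 12 tested, 12 were higher, with a median of 1.88 and a range of 0.70 to 2.26. Their summed level was 2369 to 2800 scaled reads in Input and 5897 to 11881 in Positive, and none was at 0. Flt1, a receptor of VEGF, had 2.00 ± 0.22 (SE), Vwf, the von Willebrand factor gene, 1.94 ± 0.20, and Cldn5, a tight junction gene, 1.70 ± 0.20. In the fit all 12 lay below Sparc, and within animals 3 of the 12 exceeded it in animal 201 and none in the others. From animal 207 to 208 the endothelial median went from 2.15 to 1.12 while Sparc went from 2.66 to 2.24. What part the endothelial RNA has in the level of Sparc was not tested.

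Astrocytes and mural cells are also known to express Sparc, and in the fit the medians of their genes were below 0. Within animals 201, 207 and 208 the mural median was 0.12, 0.21 and -0.89, and the astrocyte median -0.07, -0.22 and -0.76. Of 8 astrocyte genes 1 was higher and 3 were lower (median -0.33). Slc1a2, a glutamate transporter gene, was higher by 0.29 ± 0.10 (SE), and the gap junction genes Gjb6 and Gja1 fell by 1.10 ± 0.17 and 0.58 ± 0.13. Not called were 4 of the 8, among them Aldoc with -0.16 ± 0.14 and Slc1a3 with -0.22 ± 0.11. Counted over the list, with the animal as a block 5 were lower. Their sum was 60539 to 64803 scaled reads in Input and 57951 to 69448 in Positive, with none at 0. Without the Positive library of animal 201, 7 were lower, and Slc1a2 did not pass the test without any Input library or without Positive of animal 207. Of 10 mural genes 1 was higher and none lower (median -0.28), the smooth muscle myosin gene Myh11 with 1.14 ± 0.33. The mural sum was 2878 to 2995 in Input and 1923 to 3808 in Positive, again with none at 0. With the animal as a block, 2 mural genes were higher and 1 lower. Without the Positive library of animal 208, 3 mural genes were higher, without that of animal 201, 3 were lower, and none was higher without Input of animal 201 or Positive of animal 207.

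Relatives of Sparc moved less than Sparc did. Of 9 relatives tested, 1 was higher and 3 were lower, with values from -0.70 to 0.47. Spock1, a proteoglycan gene, was higher by 0.47 ± 0.11 (SE; adjusted p = 0.00309). Smoc1 fell by 0.70 ± 0.15 (adjusted p = 0.00204) and Fstl1 by 0.34 ± 0.10 (adjusted p = 0.0118, 0.0723 without Input of animal 207). Sparcl1, also called hevin and the nearest relative of Sparc, had -0.30 ± 0.11 (adjusted p = 0.0405), a call lost without any Input library and without Positive of animal 207 or 208 (adjusted p up to 0.109, edgeR). Counts of relatives rested on single libraries: 2 were higher without Input or Positive of animal 208 and with the animal as a block, and 1 was lower without Input of animal 207.

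Of 9 genes listed as partners of Sparc, among them receptors and collagens, 2 were higher and 2 lower. Stab1, a scavenger receptor gene of macrophages that takes up Sparc, was higher by 3.80 ± 0.18 (SE; adjusted p = 2.42e-09), from 334 to 4665 scaled reads, and Itgb1, an integrin subunit gene, by 1.5 ± 0.13 (adjusted p = 9.75e-07). Genes of fibrillar collagen, which Sparc binds, had no common direction. Col1a2 fell by 1.16 ± 0.22 (adjusted p = 0.000935), and Col1a1 had -0.69 ± 0.26 (adjusted p = 0.0419), a call lost without Input of animal 207 or Positive of animal 201 or 208 (adjusted p up to 0.254, edgeR). Col3a1 had 0.30 ± 0.30 and Col5a1 -0.29 ± 0.15, neither past the threshold. Col3a1 turned negative (-0.23) without Positive of animal 207, and Col5a1 passed (adjusted p = 0.0362) without Positive of animal 201. Without Positive of animal 208, 4 of the 9 were higher and 1 lower, and without Input of animal 207 1 was lower. Fibroblast genes, 8 in all, counted 6 lower and none higher, with a sum of 4101 to 4438 scaled reads in Input and 1692 to 2590 in Positive.

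The olfactomedin family did not rise with Olfml3. Of 11 olfactomedin genes tested besides it, none was higher and 2 were lower, and the values ran from -1.35 to 0.30 (median -0.11). Olfml1 fell by 1.35 ± 0.28 (SE; edgeR, adjusted p = 0.00186). Olfm1, a neuronal member with 16798 scaled reads in Input, had -0.29 ± 0.10, and its call (adjusted p = 0.0361) was lost without any library except Positive of animal 208 (adjusted p up to 0.135). Without Positive of animal 208, 1 of the 11 was higher, and with scaling to the total count 5 were lower.

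Crybb1 had a companion among the crystallins. Of 4 beta and gamma crystallin genes tested besides it, Cryba4 and Crybg3 were higher. Cryba4 (mm10 chr5:112246493-112252518, minus strand) lies 3.3 kb from Crybb1 on the opposite strand. Input held 4.08, 8.46 and 6.03 of its scaled reads and Positive 154, 221 and 125, so that its Input rests on at most 9 reads a library and it passed the filter through Positive alone. The log2 fold change was 4.70 ± 0.34 (SE; edgeR, adjusted p = 1.54e-07), close to the 4.54 of Crybb1. Crybg3 had 0.92 ± 0.28 (adjusted p = 0.0176), lost without Input of animal 207 or 208 or Positive of animal 201 (adjusted p up to 0.0774, edgeR). Crybg1 had 0.60 ± 0.27 and Crybb3 -0.40 ± 0.28, neither past the threshold.

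Selplg binds selectins only after it has been decorated with sugars and sulfate, and genes of that machinery were followed. None of the 3 selectin genes was among the genes tested. Of 9 enzymes tested 5 were higher and 2 lower (median 0.98, range -0.79 to 3.93). Gcnt1, which builds the core 2 branch of the sugar, was higher by 3.93 ± 0.22 (SE; adjusted p = 1.67e-08), and Fut4, a fucosyltransferase, by 3.31 ± 0.54 (adjusted p = 0.000296). Fut4 passed the filter on low reads through Positive alone, with at most 6 reads in an Input library and 20.8 to 77.2 scaled reads in Positive. Of the other 8 enzymes 4 were higher. St3gal6, a sialyltransferase, was higher by 2.57 ± 0.18 and B4galt1, a galactosyltransferase, by 2.15 ± 0.18. The second sialyltransferase of the list, St3gal4, fell by 0.79 ± 0.14 (edgeR, adjusted p = 0.000487). Of the tyrosine sulfotransferases Tpst2 was higher by 0.98 ± 0.13, and Tpst1 had -0.29 ± 0.10 (adjusted p = 0.0348), lost without any library except Positive of animal 208 (adjusted p up to 0.127, edgeR).

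The cytoplasmic tail of PSGL-1 binds proteins of the ezrin, radixin and moesin family and signals through the kinase Syk. Msn, the moesin gene, was higher by 3.35 ± 0.13 (SE; edgeR, adjusted p = 5.17e-10), Syk by 3.61 ± 0.20 and Rdx by 0.51 ± 0.09. Ezr, the ezrin gene, had -0.38 ± 0.12 (adjusted p = 0.0202, and 0.0783 without Input of animal 201). The family thus split between fractions, with moesin on the side of Selplg.

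The genes around Aif1 in actin bundling split in the same manner. Lcp1, the plastin of blood cells that works with Iba1, was higher by 4.15 ± 0.16 (SE; edgeR, adjusted p = 5.92e-10), close to the 4.16 of Aif1, and Rac2, a GTPase of blood cells, by 3.85 ± 0.25. Rac1, used by most cells, was higher by 0.40 ± 0.08. Pls1, a plastin of epithelia, fell by 1.39 ± 0.21 (adjusted p = 0.000129), and Pls3 had 0.15 ± 0.08 (adjusted p = 0.146). Aif1l, the nearest relative of Aif1, averaged 129 scaled reads in Input against 106 in Positive, a log2 fold change of -0.28 ± 0.21 (adjusted p = 0.306). Of the 3 genes linked to Tmem119 in bone, Smad1 was higher by 0.51 ± 0.11 and Runx2 had -0.64 ± 0.18 (adjusted p = 0.0113, and 0.0745 without Input of animal 207).

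The genes most like each of the 6 were found by the distance between profiles of log2 scaled reads, centred on the mean of the gene, over the 6 libraries. Tmem119 was nearest to Clec5a (0.076), Itgb2 (0.10) and Siglech (0.16), and Selplg to genes that included Cd53 (0.20) and C1qb (0.25). Aif1 was nearest to Tmem173, Hvcn1 and Lpcat2 (0.17 to 0.22), Crybb1 to Ptafr, Tnfaip8l2 and Nckap1l (0.21 to 0.26) and Olfml3 to Myo1f, Gpr84 and Pld4 (0.16 to 0.31). Sparc had neighbours of another kind, Apobec3, Tln1 and Prcp (0.14 each), with fold changes of 5.55, 5.21 and 5.28. Among the 6 genes themselves Tmem119 and Selplg were closest (0.31), and Sparc was 2.1 to 2.9 from the others. The 6 libraries differ mostly by fraction, so that distance chiefly compares the size of the fold change.

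**Figure D5:**
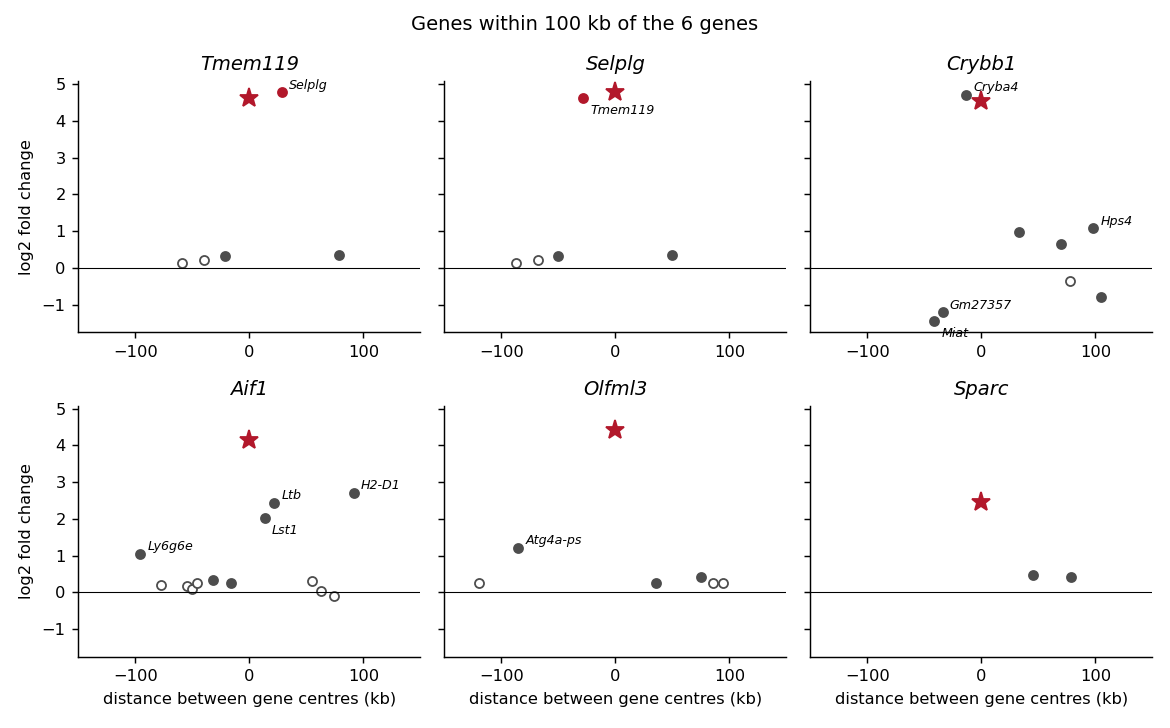
Fitted log2 fold change (vertical axis) of the genes within 100 kb of each of the 6 genes against the distance between gene centres in kilobases (horizontal axis), with a star for the named gene, red for genes among the 6, filled symbols for genes past the threshold and open ones for the rest. Selplg with Tmem119, and Cryba4 with Crybb1, stand at the height of the star, and most other symbols lie near 0.

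Genes beside the 6 on the chromosomes mostly showed small differences. Of 33 other genes tested within 100 kb of the 6, 17 were higher and 3 lower, with a median log2 fold change of 0.27. Over 5-fold were 3, among them Cryba4 and Ltb. Of the genes called higher, Cryba4, Ltb, Atg4a-ps and Ly6g6e passed the filter on low reads through Positive alone, where they are high. Among all genes tested 24.0% were called higher and 22.0% lower, so in this fit calls of higher were more frequent among these neighbours. Some of the calls rested on single libraries. Those of Hipk1, Prrc2a, Ly6g6e and Dclre1b (higher) and of Gm43759 (lower) were each lost when certain single libraries were left out. With scaling to the total count, Hipk1, Prrc2a and Dclre1b were not called. Why they were more frequent was not tested. Beside the pair of Tmem119 and Selplg, Coro1c lay 9.79 kb from Selplg with 0.36 ± 0.08 (SE) and Iscu 15.4 kb from Tmem119 with 0.33 ± 0.08. On the far side of Cryba4 from Crybb1 the long noncoding RNA Miat fell by 1.44 ± 0.12 (edgeR, adjusted p = 6.08e-07). The sulfotransferase gene Tpst2 lies 7.11 kb from Crybb1, and Hps4, a gene of lysosome-related organelles, had 1.07 ± 0.13 at 73.5 kb. Near Aif1, in the major histocompatibility complex, Lst1 was higher by 2.03 ± 0.22, Ltb, the lymphotoxin beta gene, by 2.43 ± 0.41, and H2-D1, a class I gene, by 2.71 ± 0.13, from 782 to 5119 scaled reads. Ltb had at most 9 reads in an Input library and 22.7 to 43.7 scaled reads in Positive. Its ratio was 2.32-fold, 9.4-fold and 5.32-fold in animals 201, 207 and 208. H2-D1 has close relatives in the complex, between which reads could be divided by the authors' counting. Both genes tested near Sparc rose slightly, Atox1 by 0.48 ± 0.13 and G3bp1 by 0.43 ± 0.07. No annotated gene overlaps any of the 6.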

How the data were processed

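Directional, poly(A)-selected libraries of Input and Positive RNA of 3 hippocampi were aligned by the authors to mm10 with strand in Strand NGS. The deposited table holds expected counts, that is, estimated counts per gene, limited by the authors to genes with 20 raw reads or more throughout 1 fraction, and log2 values that the authors normalized with DESeq and centred on Input. Samples were grouped by fraction and animal as labelled.

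Expected counts were rounded and tested in R 4.3.3 with edgeR 4.0.16 (quasi-likelihood, unpaired), median-of-ratios scaling, over 15343 genes with more than 20 scaled reads in every library of a fraction (45 genes removed), and Benjamini-Hochberg adjustment over all of them at 0.05. The test was checked on simulated data with known changes. Ratios within an animal used a pseudocount of 1 scaled read. Exon lengths came from GENCODE, promoters from RefSeq. No 2 libraries were identical.

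Same-numbered libraries came from the same animal, and their deviations from the fraction means correlated at 0.27, 0.085 and 0.15. With the animal as a block, the 6 genes were called alike. Alternatives were other scalings, filters, DESeq2 1.42.0, each library left out and, added after seeing the data, limma 3.58.1 on the deposited log2 values.

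The 6 genes and the lists were chosen with earlier results of these data known. Genes were named by rule: the 6 genes, members of family, partner and enzyme lists, up to 4 abundant genes of other lists, the 3 nearest genes by profile and called neighbours. Mef2c, Gjb6, Gja1, Myh11 and Dsp were named after their values were seen. A few genes within this rule are left out here.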

Additional observations from a re-analysis of the deposited data

How the results depend on the processing

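All 6 genes stayed higher in Positive and past the threshold in each of the 13 alternatives run, with adjusted p up to 3.18e-05. The log2 fold changes ranged from 4.49 to 4.76 for Tmem119, 4.65 to 4.94 for Selplg, 4.05 to 4.31 for Aif1, 4.35 to 4.64 for Crybb1, 4.32 to 4.61 for Olfml3 and 2.35 to 2.59 for Sparc. With the animal as a replicate block, Sparc had 2.45 and Tmem119 4.62, and all 6 were called. The gap between Sparc and the median of the other 5 genes was -1.99 with a pseudocount of 5 in place of 1, more than the spread of 0.04 from -2.05, since a larger pseudocount shrinks the ratios of genes low in Input, and -2.07 to -2.03 with an animal left out. Scaling to the total count shifted the median of all genes to -0.09. The count of genes called higher ranged from 3008 to 3819 with a library left out and from 3048 to 3903 under the other settings. With genes kept only at a mean of 100 scaled reads or more, no crystallin gene besides Crybb1 was left, so its list had no median there. Col3a1 ranged from -0.225 to 0.548 with a library left out, below 0 without Positive of animal 207. Short lists moved more. With the total count, 5 olfactomedin genes and 6 astrocyte genes were lower in place of 2 and 3, and no astrocyte gene was higher. DESeq2 called 2 relatives of Sparc higher in place of 1. The limma fit called 1 olfactomedin gene and 1 Sparc partner lower in place of 2 each, no astrocyte and no mural gene higher, and Ezr, Sparcl1, Olfm1, Tpst1 and Col1a1 not at all, and it called Crybg1 higher (0.59, adjusted p = 0.0128). Crybb1 had at least 50 raw reads in Input, and Cryba4 at most 9, so that fold changes of genes at the level of Cryba4 are set by few reads.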

Other observations

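Macrophages at the borders of the brain share the Cx3cr1 promoter with microglia, and their genes were measured beside the 6 genes. Of 10 border macrophage genes tested, 10 were higher in Positive, with a median log2 fold change of 4.08, and their sum was 553 to 644 scaled reads in Input and 6478 to 12545 in Positive, with none at 0. Of the 10, 5 passed the filter on low reads through Positive alone, where they are high, and the other 5 were higher with a median of 4.01. Mrc1, a mannose receptor gene, was higher by 4.19 ± 0.28 (SE; edgeR, adjusted p = 7.63e-08), F13a1, a coagulation factor subunit gene, by 4.48 ± 0.26 and Cd163, a haptoglobin receptor gene, by 4.01 ± 0.37. In each animal all 10 exceeded Sparc. Within animals 0 of the 10 exceeded Tmem119 or Selplg in animals 201 and 207, and 2 exceeded each of them in animal 208. These 2 were among the 5 that passed the filter through Positive alone. They had 4.2 and 7.34 scaled reads in Input of animal 208, so their ratios there rest on few reads. Their median ratio was 3.73, 4.36 and 3.59 in animals 201, 207 and 208, with the highest in animal 207 as for Tmem119, Selplg, Crybb1, Olfml3 and Sparc. Without Positive of animal 207 the median was 3.65. What share of the reads of the 6 genes comes from border macrophages was not tested.

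Dsp, the desmoplakin gene, was on the list as a marker of granule neurons of the dentate gyrus, and it was named after its values were seen. It was higher by 3.63 ± 0.26 (SE; edgeR, adjusted p = 1.56e-07), from 845 to 10425 scaled reads, whereas the median of the 10 hippocampal genes was 0.08.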
